A study of Rattus norvegicus with 8 samples.

Results

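The circadian clock genes described here are 10 listed genes, Per1, Per2, Per3, Cry1, Cry2, Clock, Npas2, Dbp, Nfil3 and Ciart, each taken by its symbol as a row of a table of 29884 genes. All 10 had a row and all 10 passed the filter on low counts, which left 16117 genes for testing. RNA came from the cervix of pregnant wild-type Sprague-Dawley rats, in 8 libraries. On gestational day 17 the animals of the LPS group were injected intraperitoneally with lipopolysaccharide, the endotoxin of Gram-negative bacteria, at 100 µg/kg, and the PBS group with phosphate-buffered saline in the same volume. Tissue was taken 12 hours later from both groups, which held 4 biological replicates each, so every value belongs to 1 time point after injection. The hour of the day of injection and of tissue collection is stated in none of the labels. The comparison asks which transcripts differ in the cervix under a stimulus that is used to model preterm birth.

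The mammalian clock is a feedback loop of transcription. CLOCK, or its relative NPAS2, pairs with BMAL1 and binds E-box elements in the promoters of the Per and Cry genes, and the PER and CRY proteins then return to the nucleus and repress that pair. A second loop runs through the nuclear receptors REV-ERB and ROR, which repress and activate Bmal1 at ROR elements, and an output arm runs through DBP and NFIL3, which compete for D-box elements. Clocks of this kind run in most peripheral tissues, including those of the reproductive tract, and they are reset by hormones, temperature and feeding.

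These elements can be seen in the promoters of a few of the genes. The sequences are from RefSeq on build GRCr8, a later build than that named for the deposited counts, and were matched by symbol. A window from 250 bases before to 50 bases after the annotated start was held for 9 of the 10 genes, with Cry1 as the other one. The bases just before the start are given for the Per2 and Ciart promoters, which hold the clearest elements among the 10 genes, and for that of Bmal1, the partner of Clock. Capitals mark the elements, which are a D-box and an E-box variant in Per2, 3 E-boxes in Ciart and a ROR element in Bmal1.
Per2 promoter, chr9:99496994-99497193, minus strand: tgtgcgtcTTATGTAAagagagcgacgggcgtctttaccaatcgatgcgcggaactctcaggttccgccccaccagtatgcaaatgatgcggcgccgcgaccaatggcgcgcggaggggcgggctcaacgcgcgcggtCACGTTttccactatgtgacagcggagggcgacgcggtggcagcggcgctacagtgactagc
Ciart promoter, chr2:186112247-186112346, minus strand: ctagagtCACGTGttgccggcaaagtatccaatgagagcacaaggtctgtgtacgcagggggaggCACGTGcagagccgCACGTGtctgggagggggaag
Bmal1 promoter, chr1:176766228-176766327, plus strand: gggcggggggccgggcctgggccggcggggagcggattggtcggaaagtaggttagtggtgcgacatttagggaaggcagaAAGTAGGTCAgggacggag
The motifs were searched on both strands. The E-box CACGTG was found in 6.42% of all 33469 promoter windows, its variant CACGTT in 4.83%, the D-box TTATGTAA or TTACGTAA in 1.01%, and the ROR element, an AGGTCA half-site after a short A/T-rich stretch, in 0.245%. Cry2 held the E-box variant 212 bases before its start. The windows of Per1, Per3, Clock, Npas2, Dbp and Nfil3 held none of these motifs, nor the cyclic AMP response element TGACGTCA, which 1.83% of windows held. The NF-kB motif, in 4.18% of windows, was in none of the members' windows. A match is a description of these letters and not of a bound site. Only these windows and these letters were searched, so elements elsewhere in or near a gene were not looked for.

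Of the 10 clock genes, Dbp was 2.15-fold higher in LPS and Clock was at 0.793 times its PBS level. The other 8 did not pass the test. With 1 time point and no hour of day in the labels, a changed level and a shifted daily cycle cannot be told apart. Whether both groups were collected at the same hour of the day is not stated. The median log2 fold change of the 10 was -0.05, against 0.01 over all genes tested. The 2 calls are 20% of the members, against 16.9% of all genes tested. By direction, 1 of 10 was higher, against 9.49% of all genes, and 1 of 10 lower, against 7.45%, so neither share stands far from the background. Fold changes are log2 values of LPS over PBS, and levels are CPM, counts relative to library size, with sizes scaled by TMM, the trimmed mean of M values. The adjusted p-values are those of edgeR's quasi-likelihood test with Benjamini-Hochberg adjustment over all genes tested, with a call at an adjusted p under 0.05. These genes were measured at 24 to 3635 counts per library, and Ciart, at 24 to 115 counts, was the shallowest.

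**Figure D1:**
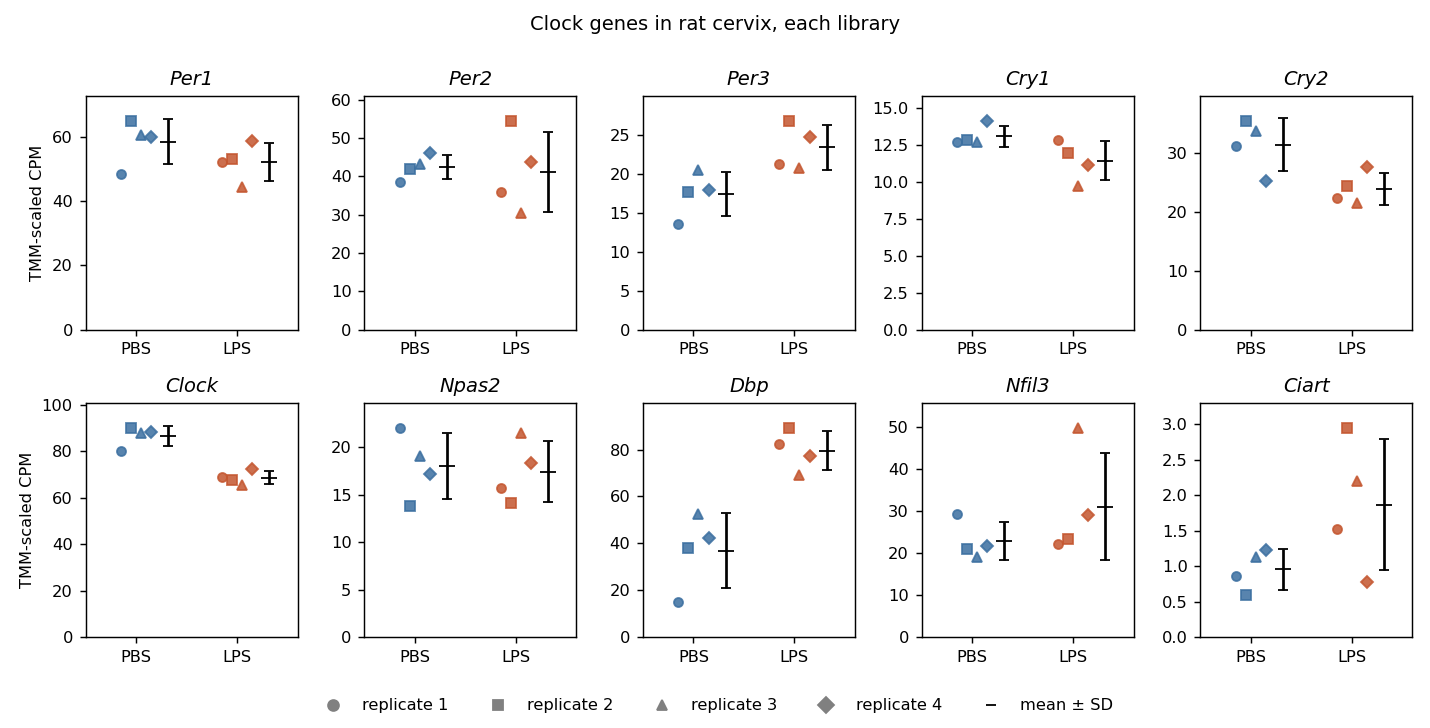
TMM-scaled CPM of the 10 clock genes in each of the 8 libraries, on axes that start at 0; symbols mark the replicate number, and the black bar is the mean ± SD of 4 libraries. Dbp, Per3 and Clock are the genes whose PBS and LPS libraries do not overlap.

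Dbp, a transcription factor of the PAR bZIP family that activates through D-boxes and is among the strongest cycling outputs of the clock, showed the largest difference. Its level was 14.9, 37.9, 52.5 and 42.4 CPM in PBS replicates 1 to 4, and 82.3, 89.1, 69.1 and 77.4 CPM in LPS replicates 1 to 4. All 4 LPS libraries lay above all 4 PBS libraries, and PBS replicate 1 was the lowest of the 8. The means were 36.9 ± 15.9 and 79.5 ± 8.40 CPM (SD, n = 4 per group), or 1.11 ± 0.32 on the log2 scale (SE, adjusted p = 0.0465). The call stood close to the threshold: it did not hold with PBS replicate 2 or 4 or any single LPS library left out, where adjusted p-values reached 0.107, while the log2 fold change lay between 0.84 (without PBS replicate 1) and 1.33 (without PBS replicate 3). With PBS replicate 1 and LPS replicate 2 both left out, the value was 0.78 (adjusted p = 0.0171). These hold the lowest PBS and the highest LPS level of Dbp. Leaving both out narrows the spread within the groups, so the lower p is not read as a firmer call.

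Clock, the histone acetyltransferase partner of BMAL1 at E-boxes, differed by less but with a far smaller spread. It stood at 80.4, 90.0, 87.8 and 88.4 CPM in PBS replicates 1 to 4 and at 69.1, 67.7, 65.5 and 72.6 CPM in LPS replicates 1 to 4. Every LPS library lay below every PBS library. The mean fell from 86.6 ± 4.28 to 68.7 ± 2.95 CPM (n = 4 per group). On the log2 scale that is -0.33 (SE 0.07, adjusted p = 0.0123). Clock was called lower in all 17 alternatives run, which gave values from -0.37 to -0.31. Npas2, which can stand in for CLOCK, had a log2 fold change of -0.05 (95% interval -0.45 to 0.35, adjusted p = 0.875). Its 22.0, 13.8, 19.1 and 17.2 CPM in PBS and 15.7, 14.2, 21.5 and 18.4 CPM in LPS overlapped, and its sign changed without PBS replicate 1 or LPS replicate 2.

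The 3 Per genes encode repressors that accumulate through the cycle, and 0 of 3 passed the test. Per1, known to be induced quickly by glucocorticoids and cyclic AMP, was measured at 48.5, 65.1, 60.6 and 60.1 CPM in PBS replicates 1 to 4 and at 52.3, 53.1, 44.4 and 58.7 CPM in LPS replicates 1 to 4. The groups overlapped, with a log2 fold change of -0.17 (95% interval -0.43 to 0.09, adjusted p = 0.348). For Per2 the levels were 38.5, 42.1, 43.2 and 46.2 CPM in PBS and 36.0, 54.6, 30.5 and 43.7 CPM in LPS. The LPS libraries thus reached on both sides of the PBS range, with a coefficient of variation of 25.3% against 7.48%, and the log2 fold change was -0.04 (95% interval -0.42 to 0.34, adjusted p = 0.883). Its sign changed without LPS replicate 1 or 3.

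Per3, a weaker repressor whose transcript cycles strongly in peripheral tissues, had a higher mean in LPS without passing the test. It was at 13.6, 17.6, 20.4 and 17.9 CPM in PBS replicates 1 to 4 and at 21.2, 26.8, 20.7 and 24.7 CPM in LPS replicates 1 to 4. The groups did not overlap, although PBS replicate 3 and LPS replicate 3 nearly met. The log2 fold change was 0.43 (SE 0.14, 95% interval 0.10 to 0.75), which did not pass after adjustment (adjusted p = 0.0731). DESeq2 called it (adjusted p = 0.0359). In all, 3 of the 10 genes had groups that did not overlap, against 23.4% of all genes tested. For 2 of them, Per3 and Dbp, LPS lay above PBS, against 12.9% of all genes, and for 1, Clock, below, against 10.5%.

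The Cry genes, which encode the repressors that bind CLOCK and BMAL1 directly, had lower means in LPS without passing the test. Cry2 was at 31.2, 35.4, 33.7 and 25.2 CPM in PBS replicates 1 to 4 and at 22.4, 24.3, 21.4 and 27.5 CPM in LPS replicates 1 to 4. PBS replicate 4 was the one PBS library within the LPS range. The log2 fold change was -0.39 (SE 0.13, 95% interval -0.68 to -0.11, adjusted p = 0.0646). Cry2 passed without PBS replicate 4 (-0.49, adjusted p = 0.0267), with DESeq2 (adjusted p = 0.024) and with limma-voom under library quality weights (adjusted p = 0.045). Cry1 lay at 12.7, 12.9, 12.7 and 14.1 CPM in PBS and at 12.8, 12.0, 9.75 and 11.2 CPM in LPS, with a log2 fold change of -0.20 (95% interval -0.46 to 0.06, adjusted p = 0.271). Only LPS replicate 1 entered the PBS range.

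**Figure D2:**
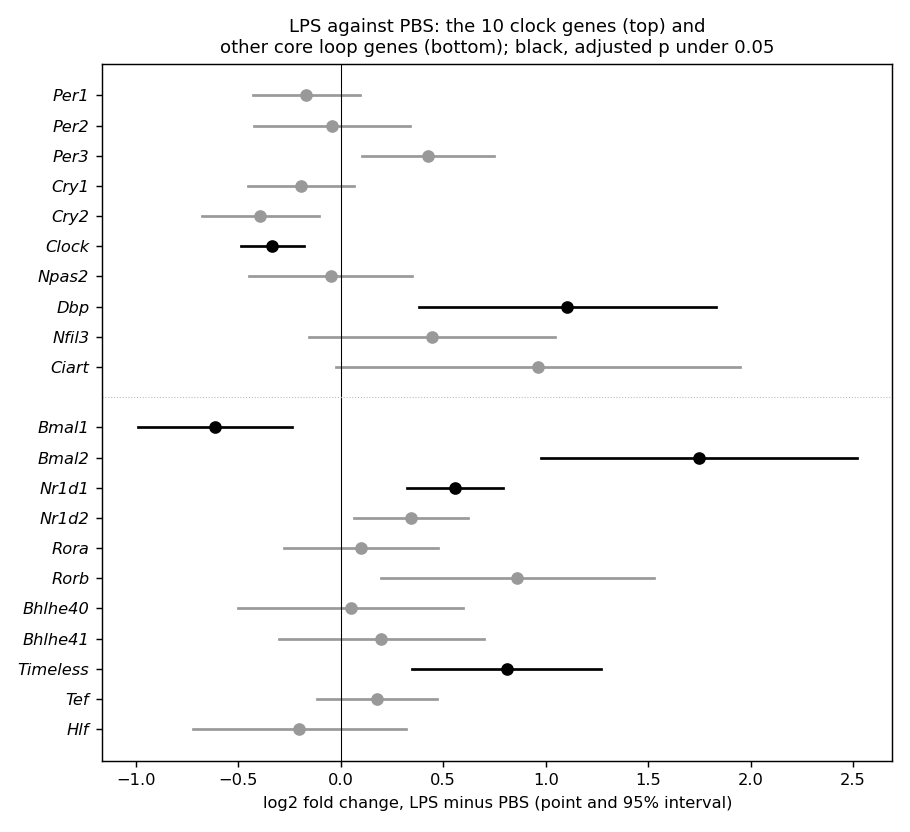
Log2 fold change of LPS over PBS, with its 95% interval from edgeR's quasi-likelihood fit, for the 10 clock genes above the dotted line and 11 other genes of the core loop below it. Black points passed an adjusted p of 0.05: Dbp and Clock among the 10, and Bmal1, Bmal2, Nr1d1 and Timeless among the others.

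Nfil3 and Ciart act as repressors. Nfil3, also called E4BP4, competes with DBP for D-boxes and is also used in immune cell development. It was at 29.3, 21.0, 19.1 and 21.7 CPM in PBS replicates 1 to 4 and at 22.1, 23.3, 49.6 and 29.1 CPM in LPS replicates 1 to 4. LPS replicate 3 held the highest level and the other LPS libraries lay within the PBS range. The log2 fold change of 0.45 (95% interval -0.16 to 1.05, adjusted p = 0.281) was 0.12 without LPS replicate 3.

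Ciart, also called CHRONO, represses the CLOCK and BMAL1 pair and had the fewest counts of the 10. Its levels were 0.869, 0.594, 1.13 and 1.23 CPM in PBS and 1.53, 2.94, 2.20 and 0.782 CPM in LPS. Of the LPS libraries, 3 exceeded every PBS library and replicate 4 lay within the PBS range. The log2 fold change was 0.96 (SE 0.43, 95% interval -0.02 to 1.95, adjusted p = 0.162), an interval that holds both no difference and a difference of more than 2-fold. It was 0.65 without LPS replicate 2 and 1.22 without LPS replicate 4.

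Differences between members within a library do not depend on how the libraries were scaled. Per3 minus Per1, in log2 CPM, was -1.83, -1.88, -1.57 and -1.74 in PBS replicates 1 to 4 and -1.30, -0.99, -1.10 and -1.25 in LPS replicates 1 to 4. It was higher in every LPS library than in every PBS library, by 0.60 on average. These differences are given without a test. Nfil3 minus Dbp was 0.97, -0.85, -1.45 and -0.96 in PBS and -1.89, -1.93, -0.48 and -1.41 in LPS. PBS replicate 1 was the highest of all 8 libraries, and LPS replicate 3 the highest of its group. The group means of the remaining pairs differed by 0.29 for Npas2 minus Clock, -0.09 for Per1 minus Per2 and 0.19 for Cry1 minus Cry2, and the groups overlapped in each.

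**Figure D3:**
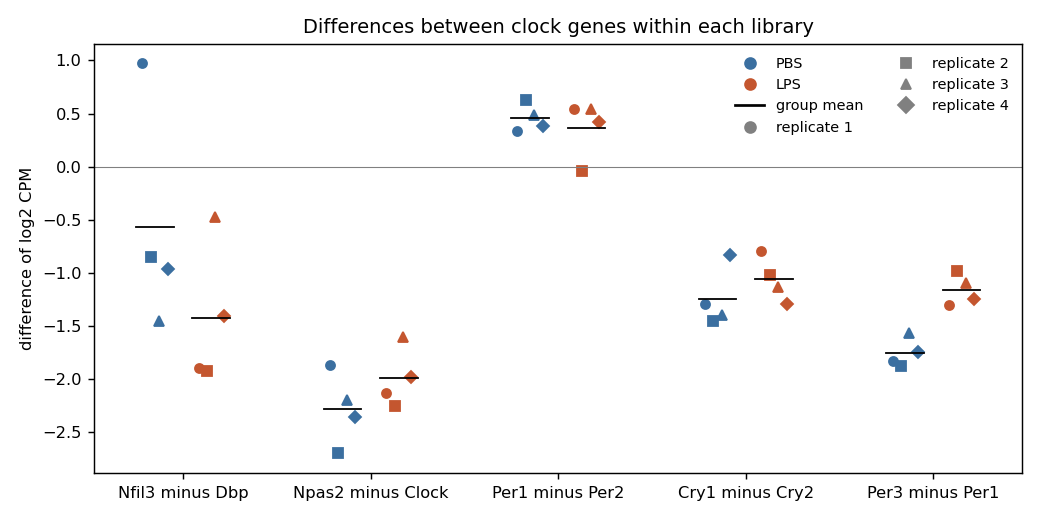
Difference in log2 CPM between pairs of clock genes within each library, for PBS (blue) and LPS (orange), with symbols for the replicate number and a line at the group mean. Only for Per3 minus Per1 do the groups not overlap, with a mean difference of 0.60 between LPS and PBS.

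Within each group 1 library stood at an end of the range for most members, as seen after the values were known. PBS replicate 1 was the lowest of its group for 6 members, Per1, Per2, Per3, Cry1, Clock and Dbp, and the highest for Npas2 and Nfil3. LPS replicate 3 was the lowest of its group for 7, the same 6 genes and Cry2, and the highest for the same pair, Npas2 and Nfil3. LPS replicate 2 was the highest of its group for Per2, Per3, Dbp and Ciart and the lowest for Npas2. In each group the low end of those 6 genes and the high end of Npas2 and Nfil3 were thus met in 1 library. These were PBS replicate 1 and LPS replicate 3. The median coefficient of variation of the 10 genes was 15.3% in PBS and 11.9% in LPS, where the medians over all genes tested were 14.4% and 15.9%.

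**Figure D4:**
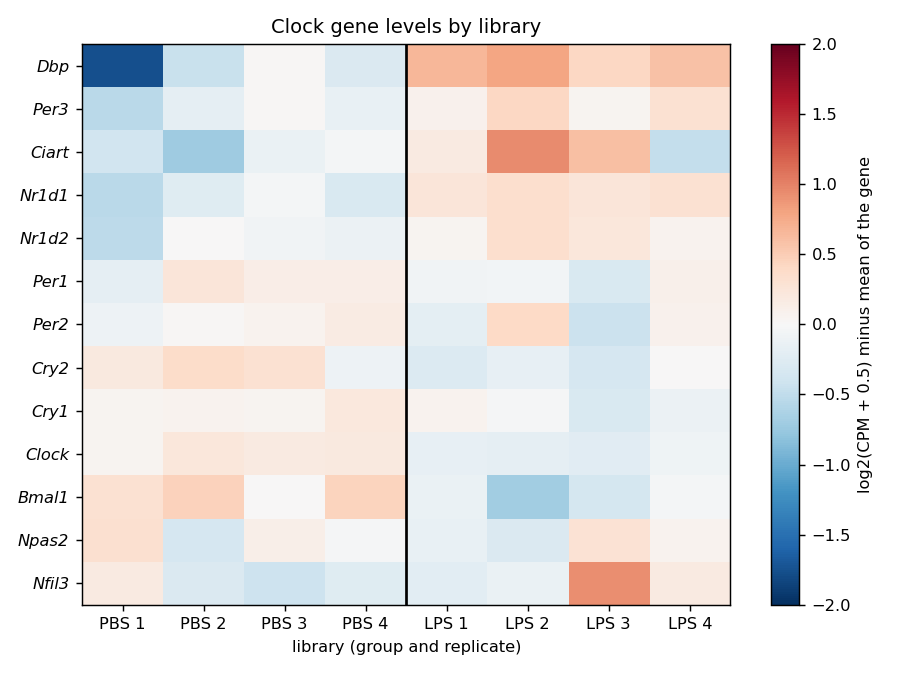
Level of 13 clock genes in each library as log2(CPM + 0.5) minus the gene's mean over the 8 libraries, red above and blue below that mean; the black line separates PBS from LPS. Dbp runs from -1.76 in PBS replicate 1 to 0.78 in LPS replicate 2, and Nfil3 reaches 0.93 in LPS replicate 3.

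Of the 12 other core loop genes, all of which were tested, 3 rose and 1 fell, which is 33.3% against 16.9% of all genes tested, with a median log2 fold change of 0.19. Bmal1, the partner of CLOCK, was at 29.6, 33.2, 23.9 and 32.8 CPM in PBS replicates 1 to 4 and at 21.7, 14.5, 18.6 and 23.2 CPM in LPS replicates 1 to 4. It fell by 0.62 on the log2 scale (SE 0.16, adjusted p = 0.0362), with no overlap between groups, but the call held only with PBS replicate 3 or LPS replicate 4 left out, and not with any other single library, nor PBS replicate 1 and LPS replicate 2 together, left out. Nr1d1, which encodes REV-ERB alpha, the repressor at the ROR elements of Bmal1, was at 34.7, 42.8, 49.2 and 41.2 CPM in PBS and at 59.9, 64.2, 60.3 and 62.8 CPM in LPS. It rose by 0.56 (SE 0.10, adjusted p = 0.00875) and was called in all 17 alternatives.

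Bmal2, a relative of Bmal1 that also pairs with CLOCK, rose from 3.89 ± 1.23 to 13.0 ± 5.36 CPM (n = 4 per group), which is 1.75 on the log2 scale (SE 0.34, adjusted p = 0.0108). Its direction was thus opposite to that of Bmal1. Timeless, named after a fly clock gene and known in mammals mainly for its part in DNA replication, rose by 0.81 (SE 0.20, adjusted p = 0.0291), which did not pass when PBS replicate 2 or 3, or LPS replicate 1, 2 or 4, was left out. Nr1d2, which encodes REV-ERB beta, was at 47.3, 68.1, 65.1 and 62.7 CPM in PBS and 71.0, 86.0, 79.7 and 71.7 CPM in LPS. These groups did not overlap, yet the log2 fold change of 0.34 did not pass (adjusted p = 0.091).

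The remaining core loop genes did not pass either. The values of Rora and Rorb, which encode receptors of the ROR family, were 0.10 and 0.86, with adjusted p-values of 0.725 and 0.0776. For the E-box repressors Bhlhe40 and Bhlhe41 they were 0.05 and 0.20 (adjusted p = 0.912 and 0.578). Tef and Hlf, the PAR bZIP relatives of Dbp, had log2 fold changes of 0.18 (95% interval -0.11 to 0.47) and -0.20 (95% interval -0.72 to 0.32), with adjusted p-values of 0.377 and 0.581. Dbp was thus the 1 gene called among the 3 of its family, and whether its change differed from theirs was not tested.

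Kinases, ubiquitin ligases and cofactors set the stability and the activity of the clock proteins. Of 30 such genes, edgeR called 0 higher and 2 lower, with a median of -0.12. At an unadjusted p under 0.05 it was 0 and 5, with no share of all genes given at that p. DESeq2 called 0 higher and 4 lower, against 2099 higher and 2089 lower of all 16117 genes tested. The edgeR calls are 6.67% of the list, against 16.9% of all genes tested. Csnk1e, the casein kinase that marks PER proteins for degradation, fell from 70.5 ± 5.37 to 53.4 ± 0.773 CPM (-0.40, SE 0.07, adjusted p = 0.00751), and was called in all 17 alternatives. Gsk3b fell by 0.27 (adjusted p = 0.0462), a call that stood only without PBS replicate 1 when single libraries were left out. Csnk1d and the AMP kinase subunit Prkaa2 had LPS libraries all below PBS with values of -0.19 and -0.48 (adjusted p = 0.116 and 0.0579).

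Of 25 tested genes known as clock outputs in other tissues, 4 rose and 2 fell, with a median of 0.06. Nampt, the rate-limiting enzyme of NAD salvage and a direct target of CLOCK and BMAL1 in mouse, rose from 54.1 ± 6.51 to 103 ± 24.5 CPM (0.93, SE 0.17, adjusted p = 0.00782). Mthfd1l rose by 0.64 (adjusted p = 0.0101) and Tspan4 by 0.87 (adjusted p = 0.0236), the latter not without PBS replicate 3. Prok2 rose by 3.08 (adjusted p = 0.0444). It reached 12.9 CPM in LPS replicate 4 and 3.52 CPM or less in all other libraries, and the groups overlapped. Its value was 1.91 without LPS replicate 4, and it passed only when LPS replicate 1 or 2 was the library left out.

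Cys1 fell from 17.7 ± 5.04 to 5.32 ± 0.808 CPM (-1.73, SE 0.22, adjusted p = 0.00202) and Tsc22d3 fell from 111 ± 19.1 to 53.0 ± 20.8 CPM (-1.06, adjusted p = 0.0419). Tsc22d3 passed only when LPS replicate 3 or 4 was the library left out. Without LPS replicate 4, 4 of the output genes were lower. Wee1, a cell cycle kinase driven through E-boxes in mouse liver, and Klf9 had LPS libraries all below PBS at -0.75 and -0.34 (adjusted p = 0.054 and 0.0647). Wee1 passed in 7 of the 17 alternatives, among them DESeq2, limma-voom and the fits without PBS replicate 1 or LPS replicate 4. Klf9 passed in 3, which were DESeq2, limma-voom with library quality weights and the fit without PBS replicate 1. The share of calls in this list was 24%, against 16.9% of all genes tested.

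Glucocorticoid and cyclic AMP signals are known to act on Per1 and Per2 directly. Genes that respond to these signals, with some that carry or limit them, were read beside Per1 and Per2. Of 17 genes on the glucocorticoid list, 2 rose and 4 fell (35.3%, against 16.9% of all genes), with a median of -0.53. Fkbp5, a chaperone of the glucocorticoid receptor, fell from 134 ± 25.9 to 57.5 ± 12.6 CPM (-1.22, SE 0.19, adjusted p = 0.00436) and Sgk1, a kinase, fell from 193 ± 59.5 to 66.5 ± 16.5 CPM (-1.54, SE 0.25, adjusted p = 0.00553). Errfi1 fell by 0.81 (adjusted p = 0.0255), but did not pass with PBS replicate 2 or LPS replicate 1, 2 or 3 left out. Tsc22d3 is also in this list. The genes that rose were the metallothionein Mt2A, by 1.92 (adjusted p = 0.0191), though not with PBS replicate 2 or 3 left out, and the transcription factor Cebpd, by 2.01 (adjusted p = 0.00753). Both are also induced by inflammatory cytokines. Hsd11b2, which inactivates corticosterone, had LPS libraries all below PBS, with a value of -1.30 (adjusted p = 0.107). With PBS replicate 2 or LPS replicate 1 left out 2 genes of the list fell, and with PBS replicate 2 or 3 left out 1 rose.

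Of 16 genes of the cyclic AMP and CREB pathway, edgeR called 0 higher and 3 lower, with a median of -0.30. At an unadjusted p under 0.05 it was 1 and 4, with no share of all genes given at that p. DESeq2 called 1 higher and 4 lower, against 2099 higher and 2089 lower of all 16117 genes tested. The share called by edgeR, 18.8%, was near the 16.9% of all genes tested. Nr4a1, an orphan nuclear receptor, fell from 103 ± 69.8 to 19.4 ± 9.58 CPM (-2.41, adjusted p = 0.0309), Fosb fell by 2.95 (adjusted p = 0.0301) and Sik1, a kinase that dampens clock resetting in mouse, fell by 1.06 (adjusted p = 0.0336). In all 3 the groups overlapped, with PBS replicate 1 at the low end of PBS and PBS replicate 4 at the high end. Their coefficients of variation in PBS were 68.0% for Nr4a1, 87.9% for Fosb and 36.3% for Sik1. With single libraries left out, 0 to 4 of the list were called lower, the 0 being met when PBS replicate 2 or 4 or LPS replicate 1, 2 or 3 was left out. Nr4a2 had LPS libraries all below PBS at -0.95 (adjusted p = 0.0523). Per1 and Per2 themselves were not called in any of the 17 alternatives.

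Level patterns were searched among the genes tested, without symbols of placeholder form (LOC, AABR, RGD and others) or symbols starting with Rn. The nearest to that of Clock over the 8 libraries was Gid4, with a root mean square difference of 0.025 in centred log2 CPM. Tnpo2 followed at 0.033. For Dbp the nearest were Rell2 at 0.18 and Hap1 at 0.34.

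The tissue held several cell types, and some of their markers moved with the groups. Of all genes tested, 16.9% were called, 9.49% higher and 7.45% lower. The shares called were 85.7% for neutrophil, 80% for macrophage, 62.5% for red cell and 60% for smooth muscle markers. They were 50% for fibroblast and 37.5% for T, NK and B cell markers. Those for columnar epithelium, squamous epithelium and endothelium were 10%, 14.3% and 20%, near the share of all genes. Total counts ran from 33191039 to 40634384 per library. Markers of smooth muscle and of squamous and columnar epithelium, cell types that cervix holds, were present in every library. Their summed levels were 4154 to 13645, 3159 to 9013 and 17823 to 28971 CPM, although Krt4, Ivl and Sprr3 fell below the filter. Of 7 tested neutrophil markers 6 rose, and the sum of the list went from 34.9 to 57.9 CPM in PBS to 388 to 1622 CPM in LPS, with Ltf at 0 counts. Of 10 monocyte and macrophage markers 7 were higher and 1 lower (641 to 983 CPM in PBS, 1299 to 1962 CPM in LPS), and of 10 fibroblast markers 5 rose (12377 to 15542 and 17580 to 27556 CPM). Of 10 smooth muscle markers 6 fell (4943 to 13645 and 4154 to 6040 CPM), of 7 squamous markers 1 (4842 to 9013 and 3159 to 4186 CPM) and of 8 red cell markers 5 (725 to 2255 and 120.0 to 671 CPM). The squamous marker that fell was Krt13, from a mean of 2197 to 94.9 CPM, and the other 6 tested were not called. The summed levels of endothelial markers, of which 2 of 10 fell, overlapped between groups (402 to 871 and 444 to 658 CPM). So did those of columnar epithelium (1 of 10 fell) and of T, NK and B cells (3 of 8 rose). The smooth muscle sums overlapped as well, through PBS replicate 4 at 4943 CPM. Muc5b made up most of the columnar sum, at means of 18412 CPM in PBS and 18762 CPM in LPS. Cd4 made up most of the T, NK and B sum, at 95.7 and 81.2 CPM. The genes called in those lists weigh little in the sums. They were Krt7 (log2 fold change -1.17), and Cd8a, Gzmb and Prf1 (1.40, 3.21 and 1.72). Transcripts of the mitochondrial genome made up 5.69 to 7.75% of counts in PBS and 4.33 to 5.11% in LPS. The part of these shifts in the levels of Dbp, Clock and the other genes above was not tested. In RNA from whole tissue, fewer cells of a type and less RNA per cell cannot be told apart.

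**Figure D5:**
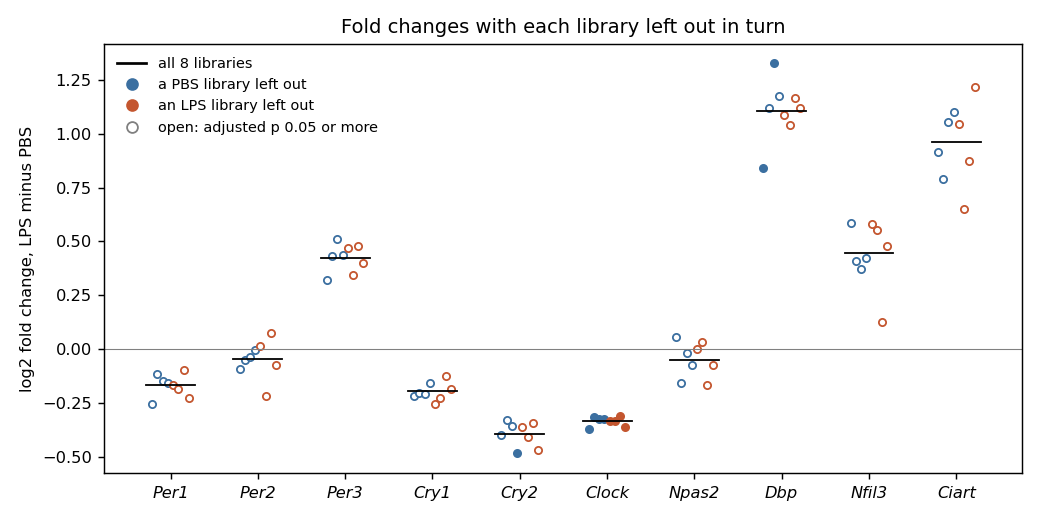
Log2 fold change of each clock gene with all 8 libraries (line) and with 1 library left out (points, blue for a PBS and orange for an LPS library); filled points passed an adjusted p of 0.05. Clock passed in all 8 such fits and Dbp in 2 of 8, while Dbp lay between 0.84 and 1.33 throughout.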

How the data were processed

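The values are raw counts as the authors deposited them, whole numbers with 1 row for each gene symbol. Build mRatBN7.2 and the tools HTSeq, HISAT2, fastp and R 3.2.0 are listed, per the submitters' processing notes, without their roles. Neither strand setting nor annotation is given in the sources used here, so a gene and its antisense or overlapping neighbour could not be separated. Columns were matched to samples by the library names in the labels. LPS replicate 4 carries library number 5 there. Genes were kept by edgeR's filterByExpr, scaled by TMM, and tested with edgeR 4.0.16 in R 4.3.3 (robust quasi-likelihood fit, no covariate, Benjamini-Hochberg over 16117 genes). SE is the log2 fold change divided by the square root of F. Log2 CPM used a prior count of 2. The procedure was tested on simulated data. The members, lists, tests and the rule for named genes were chosen with earlier results of these data known. That rule took all members, the called or non-overlapping genes of each list, and all genes of lists of at most 12. It also took the 2 genes nearest in pattern to each called member, by the search described above. Of the genes that rule took, 1 is not reported here. Alternatives were RLE and upper-quartile scaling, other filters, limma-voom 3.58.1, also with library quality weights, DESeq2 1.42.0, single libraries and a pair of libraries left out, and a replicate block.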

Additional observations from a re-analysis of the deposited data

Results flagged for a closer look

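Cry1 in PBS replicate 4, at 14.1 CPM, lay apart from the other PBS libraries at 12.7 to 12.9 CPM, by Dixon's test on groups of 4 libraries. The members were looked at in 20 groups, of which chance alone flags about 1.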

How the results depend on the processing

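Clock was called lower under all 17 alternatives and Dbp higher under 9. Of the members, 1 was called higher, or 0 with no filter on low counts, 2 with DESeq2 and 0 to 1 with single libraries left out. Called lower was 1, or 2 with DESeq2 or weighted limma-voom and 1 to 2 with single libraries left out. Over all 16117 genes tested, DESeq2 called 2099 higher and 2089 lower, against 1529 and 1200 in the main fit. With single libraries left out 904 to 1385 genes were higher and 563 to 1199 lower. Among core loop genes 0 to 1 were lower with single libraries left out and 0 without PBS replicate 1 and LPS replicate 2 together. Of the kinases and cofactors, 1 was lower with no filter, 4 with DESeq2 and 1 to 2 with single libraries left out. Of the outputs, 1 was lower with no filter, 5 with DESeq2, 4 with weighted limma-voom, 1 without that pair of libraries and 1 to 4 with single libraries left out, which gave 2 to 4 higher. The glucocorticoid list gave 2 lower without the pair, and 1 to 3 higher and 2 to 4 lower with single libraries left out. For the cyclic AMP list it was 1 higher with DESeq2, 0 lower with limma-voom, and 0 to 1 higher and 0 to 4 lower with single libraries left out. Genes that did not pass changed sign: Per2 (-0.22 to 0.076), Npas2 (-0.16 to 0.057), Rora (-0.049 to 0.22) and Bhlhe40 (-0.17 to 0.18) with single libraries left out, Bhlhe40 with weighted limma-voom (-0.054), and Npas2 (0.14), Bhlhe40 (-0.032), Bhlhe41 (-0.042, against 0.0040 to 0.29) and Tef (-0.0049, against 0.035 to 0.25) without the pair, where Per2 was -0.26 and Rora 0.25. The cause was not tested. Whether libraries with the same replicate number shared a batch is not stated in the labels. Deviations of same-numbered libraries correlated at -0.21 to 0.22, and 1 of 4 PBS libraries correlated best with its own number. With so few libraries, and deviations that cancel out within a group, these values cannot decide it. With the replicate block 0 members were higher, 0 core loop genes lower, 1 kinase or cofactor lower and 4 outputs lower, and 1151 genes were higher and 845 lower. Depth limits Ciart most, at 24 to 115 counts per library.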
